A study of Mus musculus with 76 samples.

Results

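The cells described here are patched arcuate neurons of the *Pomc* lineage in which a *Glp1r* transcript was or was not counted. Of the 76 cells sequenced, 55 had at least 2000 genes with a count and were kept, and *Glp1r* was counted in 16 of these cells (Glp1r-positive, 1 or more counts) and not in the other 39 (Glp1r-negative). Both sets were therefore chosen by measured values, by the *Glp1r* count itself and by the number of genes detected, so that their comparison is a description and carries no test. All neurons came from hypothalamic slices of male PomcCreERT2;tdTomato;Pomc-eGFP mice, in which tamoxifen given at 12 weeks of age switches on tdTomato for good in cells that drive CreERT2 from *Pomc* promoter elements, and eGFP reports the activity of the *Pomc* promoter at the time of recording. Ghost cells carried tdTomato without eGFP and Pomc+ cells carried both, and the mice had been fed chow diet (CD) or high-fat diet (HFD) for 6 months. The kept cells were 11 Ghost cells on CD, 14 Ghost cells on HFD, 16 Pomc+ cells on CD and 14 Pomc+ cells on HFD. The methods text of the study names the recorded line without the eGFP transgene, whereas its results name the line with all 3 alleles. Which cells came from the same mouse is not given in the labels. Cells of 1 label and diet are therefore taken as 1 sample, and no cell counts as a replicate of a condition.

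GLP1R is the receptor for glucagon-like peptide-1 and for the drugs that mimic it, and it signals mainly through the stimulatory G protein, adenylyl cyclase and cyclic AMP. LEPR is the receptor for the adipocyte hormone leptin, which signals through JAK2 and STAT3. Both receptors are found in arcuate *Pomc* neurons, where they are known to mark populations that overlap only in part, and both act to lower food intake. In Patch-seq the content of 1 recorded neuron is drawn into the pipette and its RNA is amplified and sequenced, so that a gene of low abundance can be missed in a cell that expresses it, and fewer transcripts in the cell cannot be told apart from less RNA recovered.

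Glp1r-positive cells had higher median total counts and yielded more genes. The 16 Glp1r-positive cells had 117909 to 1338910 total counts (median 682474), and the 39 Glp1r-negative cells had 27715 to 1452605 (median 393797). Between 2330 and 9808 genes had a count in Glp1r-positive cells (median 5861), against 2043 to 9041 in Glp1r-negative cells (median 3395). The sets overlapped over most of both ranges, but the ratio of the medians was 1.73 for genes. When every kept cell was thinned to 20000 counts, the median was still 3661 genes in Glp1r-positive cells against 2108 in Glp1r-negative cells, a ratio of 1.75, so the ratio was as large at equal depth while the difference was smaller in genes. The part of the number of genes in the differences described here was not tested. The 2 cells just inside the limit of 2000 genes had 2043 and 2058 genes, and the 2 cells just outside it had 1964 and 1939 genes.

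**Figure D1:**
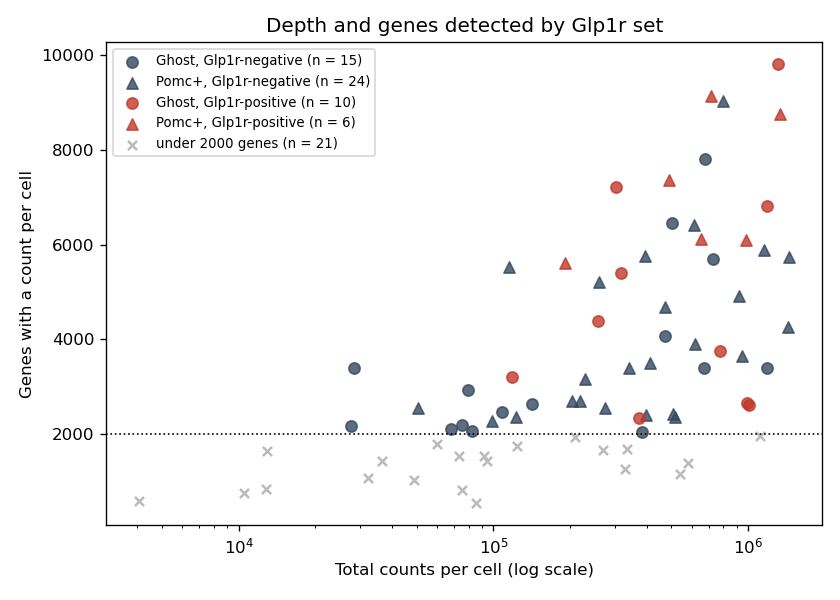
Total counts per cell (log axis) against the number of genes with a count for all 76 cells, with red for Glp1r-positive and dark blue for Glp1r-negative cells, circles for Ghost and triangles for Pomc+ cells, and grey crosses for the 21 cells under 2000 genes (dotted line). Of the 16 kept Glp1r-positive cells, none had fewer than 117909 counts, whereas kept Glp1r-negative cells reached down to 27715 counts. A *Glp1r* count was also seen in 2 of the 21 cells under 2000 genes, both on HFD, with 12900 and 538838 total counts.

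Within the Glp1r-positive set the level of *Glp1r*, a gene on chromosome 17, varied widely. Its level in CPM, which is the count scaled to a cell total of 1000000, lay between 2.69 and 430.6 (median 100.5, mean 129). The raw counts lay between 1 and 435 (median 42). Of the 16 cells, 13 had at least 26 counts and the other 3 had 3 counts or fewer, namely 1 count in a Ghost cell on HFD, 3 counts in a Ghost cell on CD and 3 counts in a Pomc+ cell on CD. No kept cell had between 4 and 25 counts, so any limit from 4 to 26 counts would have moved those 3 cells and no other. In the 5 Ghost cells on CD *Glp1r* was at 11.7, 38.6, 116, 139 and 288 CPM. In the 5 Ghost cells on HFD it was at 2.69, 85.8, 145, 250.2 and 431 CPM. In the 4 Pomc+ cells on CD it was at 15.8, 55.1, 86.6 and 114 CPM, and in the 2 Pomc+ cells on HFD at 56.2 and 225 CPM. The values of the 4 groups overlapped. A count of 0 leaves room for 3 counts, which in the 39 Glp1r-negative cells corresponded to 2.07 to 108 CPM with a median of 7.62 CPM. In 2 of these cells the limit lay above the median level of the positive cells, and in 35 of them it lay above the lowest positive cell. The limit takes counts as independent, which reads without molecular identifiers are not, so it can be too low in any of these cells. No cell type that should lack *Glp1r* was sequenced alongside, so no background share of cells with a count can be given.

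**Figure D2:**
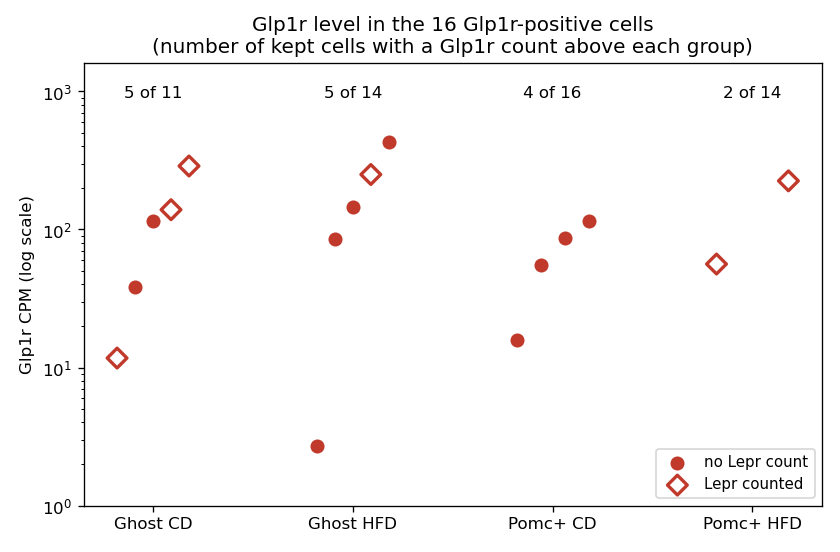
*Glp1r* CPM (log axis) of each of the 16 Glp1r-positive cells by label and diet, with the number of positive cells and of kept cells above each group and open diamonds for cells in which *Lepr* was also counted. The values run from 2.69 to 430.6 CPM, the groups overlap, and the 6 cells with *Lepr* are spread over 3 of the 4 groups.

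*Glp1r* was counted in 10 of 25 Ghost cells, which is 40% (21.1 to 61.3%), and in 6 of 30 Pomc+ cells, which is 20% (7.71 to 38.6%). All intervals given for shares of cells are exact Clopper-Pearson intervals at 95%, and those of differences between shares are Newcombe intervals at 95%. Both kinds cover counting error only, and reads without molecular identifiers are not independent molecules. Ghost cells made up 62.5% of the Glp1r-positive set (35.4 to 84.8%) and 38.5% of the Glp1r-negative set (23.4 to 55.4%), a difference of 24 percentage points with an interval from -4.49 to 47.4. The share of Ghost cells was higher in the positive set on both diets, at 5 of 9 against 6 of 18 cells on CD and 5 of 7 against 9 of 21 cells on HFD. By diet, 9 of 27 CD cells (33.3%, 16.5 to 54%) and 7 of 28 HFD cells (25%, 10.7 to 44.9%) were Glp1r-positive. HFD cells made up 43.8% of the positive and 53.8% of the negative set, a difference of -10.1 percentage points with an interval from -35.4 to 17.6. Both intervals include a difference of 0. They take each cell as independent, although cells shared mice that the labels do not name, so they are too narrow for a comparison of labels or diets. Among cells with a count the mean *Glp1r* level was 151 CPM in Ghost and 92.2 CPM in Pomc+ cells, and 96.1 CPM on CD and 171 CPM on HFD.

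The cells carry numbers in their labels, and these numbers form 8 runs of consecutive cells on the same diet. *Glp1r* was counted in 10 of the 19 kept cells of the first 2 runs (52.6%, 28.9 to 75.6%) and in 6 of the 36 kept cells of the other 6 runs (16.7%, 6.37 to 32.8%). The median total was 777953 counts in the former and 281920 in the latter. The labels do not say what the runs are, and the part of total counts in this difference was not tested. In the 6 runs that held cells of both sets the median number of genes was higher in the Glp1r-positive cells each time, from 4930 against 4570 genes in the first run to 7210 against 3165 genes in the fourth.

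*Lepr*, on chromosome 4, was counted in 6 of 16 Glp1r-positive cells (37.5%, 15.2 to 64.6%) and in 4 of 39 Glp1r-negative cells (10.3%, 2.87 to 24.2%), a difference of 27.2 percentage points with an interval from 4.02 to 51.9. This interval too takes each cell as independent and is too narrow. Over all genes compared below, the median difference in the share of cells with a count was 15.2 percentage points, which lies within that interval. Of the 10 kept cells with *Lepr*, 6 also had *Glp1r*. In those 6 cells *Lepr* was at 24.5, 26.6, 35.1, 42.9, 63.2 and 161 CPM, and in the 4 Glp1r-negative cells it was at 42.8, 96.8, 152 and 159 CPM. The levels overlapped, and the mean over all cells of a set was 22.1 CPM in Glp1r-positive and 11.5 CPM in Glp1r-negative cells, a ratio of 1.91 that ran from 1.11, without the Ghost cell on CD at 161 CPM, to 2.88 when each cell was left out in turn. The ratio was 1.19 on CD and lay below 1 within Pomc+ cells, at 0.55. It could not be formed in Ghost or HFD cells, where no Glp1r-negative cell had *Lepr*. By label, *Lepr* was counted in 4 of 10 Glp1r-positive and 0 of 15 Glp1r-negative Ghost cells, where 0 of 15 allows a share of up to 20%. In Pomc+ cells it was counted in 2 of 6 and 4 of 24 cells. By diet, the counts were 3 of 9 and 4 of 18 cells on CD, and 3 of 7 and 0 of 21 cells on HFD, where 0 of 21 allows a share of up to 14.3%. All 4 Glp1r-negative cells with *Lepr* were Pomc+ cells on CD. Among the 25 kept cells with at least 4000 genes, *Lepr* was counted in 5 of 11 Glp1r-positive and 2 of 14 Glp1r-negative cells. Thinned to 20000 counts, the same 16 and 39 cells gave *Lepr* in a median of 4 cells (2 to 5 over 20 draws) and 3 cells (2 to 4). Among the 14 and 33 cells of the range of genes that both sets shared, the difference in *Lepr* was 16.5 percentage points.

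Across genes, 8718 genes other than *Glp1r* were counted in at least 10 kept cells and in both sets, and for each the mean CPM of the Glp1r-positive cells was divided by that of the Glp1r-negative cells. The mean was higher in Glp1r-positive cells for 5153 genes (59.1%), which is the background for every count of higher and lower genes below. The mean was at least 2-fold higher in Glp1r-positive cells for 2176 genes (25%) and at least 2-fold lower for 947 genes (10.9%), and the median log2 ratio of all genes was 0.24. Of these, 1179 and 479 genes stayed past 2-fold when any 1 cell was left out. Within CD cells 748 genes were at least 2-fold higher and 757 lower (15.6% and 15.8% of 4802 genes, median log2 ratio -0.03), and within Ghost cells 583 and 719 (16.1% and 19.8% of 3624 genes, median -0.17), so the excess of higher genes was not seen there. It was seen within HFD cells, with 1233 and 714 of 4650 genes and a median of 0.20, and within Pomc+ cells, with 1701 and 570 of 5684 genes and a median of 0.41. The split depended on the scaling. With the normalized counts deposited by the authors 3979 genes (45.6%) were at least 2-fold higher and 454 (5.21%) lower, with a median log2 ratio of 0.87. With CPM computed without the 7 genes counted in all 76 cells, which held 43.7% of all counts, the numbers were 1659 and 1415, with a median of 0.00. The shares of these common genes differed between the sets, with a median of 30.3% of counts in Glp1r-positive and 39.9% in Glp1r-negative cells. Ratios are therefore read below against the median of all genes. They are on CPM unless said otherwise, and for a named gene whose ratio lies on the other side of 1 under another scaling, the ratios on deposited normalized counts and without the 7 common genes follow in that order. Where a range follows a ratio, it is that found when each cell was left out in turn, and cells that change a result are given by their number in the labels. The share of cells with a count was higher in Glp1r-positive cells for 84.0% of the genes, by a median of 15.2 percentage points, which is the background for every share of cells given here.

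The insulin receptor gene *Insr*, on chromosome 8, was among the genes furthest above this background. It belongs to the 10 highest genes ranked below, which were chosen by their ratios on both diets, in both labels and without each cell. Its ratios in those settings describe it and are no measure of stability. It was counted in 12 of 16 Glp1r-positive cells (75%, 47.6 to 92.7%) and in 6 of 39 Glp1r-negative cells (15.4%, 5.86 to 30.5%). In the 12 cells with a count *Insr* ranged from 3.06 to 188 CPM and 11 of them were at 63.2 CPM or more, whereas the 6 Glp1r-negative cells were at 1.06, 13, 24.4, 27.8, 34.5 and 57.4 CPM. Only 1 of the 12 Glp1r-positive cells, a Pomc+ cell on CD at 3.06 CPM, lay within the range of the Glp1r-negative cells that had a count. The mean over each set was 79.1 and 4.06 CPM, a ratio of 19.5 that stayed between 17.7 and 29.8 when each cell was left out in turn, and the sums of 758 counts (705 to 814, exact Poisson) and 79 counts (62.5 to 98.5) came from those cells. The Poisson ranges take reads as independent molecules and are too narrow. Within each diet the ratio was 16.9 (CD) and 22 (HFD), and within each label 11.2 (Ghost) and 34.4 (Pomc+). *Insr* was counted in all 6 Glp1r-positive Pomc+ cells against 4 of 24 Glp1r-negative ones, and in 6 of 10 against 2 of 15 Ghost cells. Of the 4 Glp1r-positive cells without *Insr*, all were Ghost cells, and 3 of them were on HFD. Among cells with at least 4000 genes it was counted in 10 of 11 Glp1r-positive and 4 of 14 Glp1r-negative cells, and after thinning to 20000 counts in a median of 10 of 16 and 2 of 39 cells. All 6 cells with both *Glp1r* and *Lepr* also had *Insr*. With deposited normalized counts the ratio was 44.8, and without the 7 common genes it was 17.6.

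Among 29 receptors for metabolic hormones and feeding signals, 18 were counted in enough cells to be compared. Of these, 16 had a higher and 2 a lower mean CPM in Glp1r-positive cells, with 7 genes (38.9%) at least 2-fold higher against 25% of all genes and 1 (5.56%) at least 2-fold lower against 10.9%. The median log2 ratio of the 18 genes was 0.76. *Ghr*, the growth hormone receptor, followed *Insr*, with a count in 9 of 16 and 7 of 39 cells and mean levels of 66.7 and 8.08 CPM, a ratio of 8.25 (5.43 to 12.2 leaving out each cell). In cells of at least 4000 genes *Ghr* was counted in 8 of 11 and 6 of 14 cells. The neuropeptide Y receptors lay close to or above 2-fold. *Npy1r* had 201 and 92.8 CPM (ratio 2.17), *Npy2r* 59.1 and 28.8 CPM (2.05) and *Npy5r* 66.8 and 20.5 CPM (3.25). Each was under 2-fold without 1 cell, at 1.62 for *Npy1r* without cell 660, 1.72 for *Npy2r* without cell 637 and 1.89 for *Npy5r* without cell 638. The ratio of *Npy1r* was 0.84 within Ghost cells and 4.65 within Pomc+ cells. Without the 7 common genes *Npy1r* and *Npy2r* were at ratios of 1.71 and 1.68. *Il6st*, the shared signal transducer of interleukin-6 type cytokines, had a ratio of 4.39 (2.36 without cell 638) that turned from 0.29 on CD to 52.1 on HFD. *Esr1*, the oestrogen receptor alpha, had a ratio of 2.87, and 1 cell held 61.9% of its summed CPM in Glp1r-negative cells. The ratio was 1.63 without cell 660 and 7.32 without cell 642. The direction of *Esr1* depended on the cells kept, with log2 ratios of -0.43 without a minimum of genes and -0.56 at a minimum of 1000 genes.

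The other receptors of the list were less than 2-fold higher, or lower, in Glp1r-positive cells. *Thra*, a thyroid hormone receptor, had 190 and 187 CPM and was counted in all 16 Glp1r-positive and 36 Glp1r-negative cells, and *Nr3c1*, the glucocorticoid receptor, had 69.2 and 68.6 CPM (ratio 1.01, other scalings 1.61 and 0.90). *Igf1r* (ratio 1.07, 0.53 to 1.53), *Adipor2* (1.22, 0.78 to 1.51), *Cckar* (1.41, 0.865 to 2.75), *Gabbr1* (1.46, 1.31 to 1.57), *Thrb* (1.69, 0.96 to 2.53) and *Prlr* (1.70, 1.39 to 2.26) lay below 2-fold with all cells. Single cells thus took *Cckar* and *Thrb* to either side of 1 and past 2-fold, with cells 660 and 692 at the ends for *Cckar* and cells 643 and 714 for *Thrb*, and they took *Igf1r* (cell 690) and *Adipor2* (cell 643) below 1. On the other scalings *Adipor2* was at 1.53 and 0.76 and *Cckar* at 3.46 and 0.83. *Gabbr2*, a GABA-B receptor subunit, had a ratio of 0.60 (other scalings 1.01 and 0.55). *Adipor1*, an adiponectin receptor, was the only receptor at least 2-fold lower, with 29.9 and 92.8 CPM (ratio 0.32, 0.25 to 0.47 leaving out each cell), and its ratio was 0.70 on deposited normalized counts. The other 11 receptors were counted in too few cells for a ratio. Of these, *Mc3r*, a melanocortin receptor, was counted in 5 of 16 and 3 of 39 cells, *Htr2c*, a serotonin receptor, in 3 and 6 cells, *Cnr1*, the cannabinoid receptor, in 2 and 6 cells, *Nr3c2*, the mineralocorticoid receptor, in 3 and 4 cells, and *Cntfr*, the ciliary neurotrophic factor receptor, in 1 and 5 cells. *Oprm1*, the mu opioid receptor, was counted in 4 of 16 and 0 of 39 cells, where 0 of 39 allows a share of up to 7.69%. *Ghsr*, the ghrelin receptor, was counted in 1 and 2 cells, *Il6ra* and *Htr1b* in 1 Glp1r-negative cell each, and *Mc4r* and *Cckbr* in none.

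**Figure D3:**
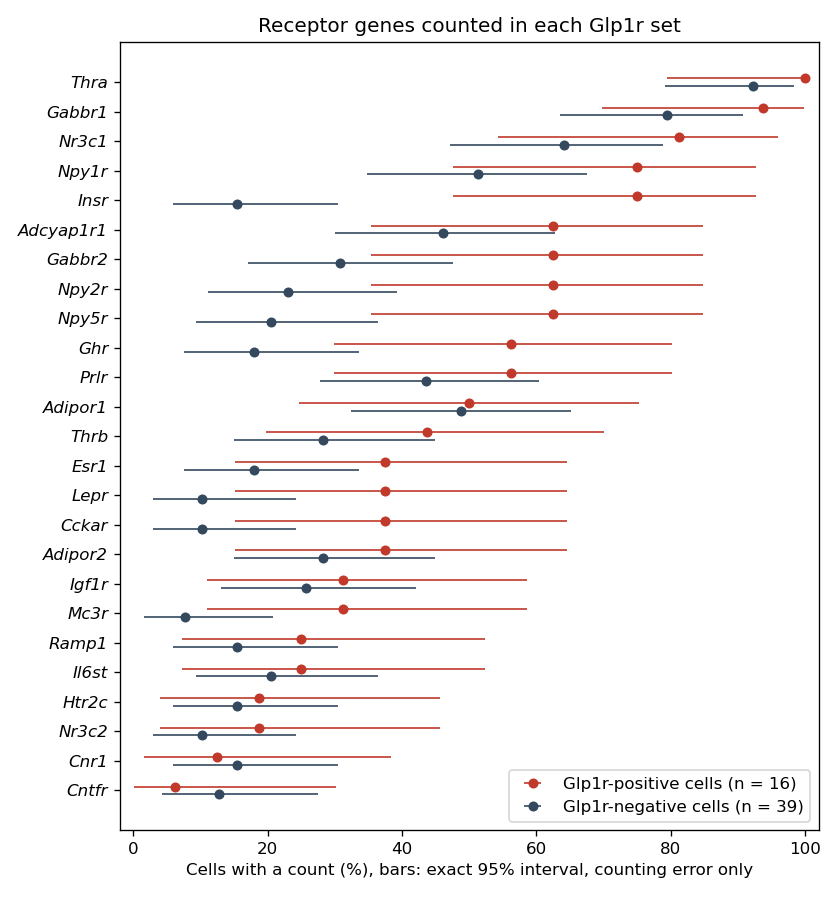
Percent of cells with a count for each listed receptor gene with a count in at least 5 kept cells, in red for the 16 Glp1r-positive and in dark blue for the 39 Glp1r-negative cells, with exact 95% intervals that cover counting error only. *Insr* stands apart at 75% against 15.4%, and the intervals of every other receptor drawn overlap.

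Most relatives of GLP1R in the class B family were hardly counted. Of 17 other genes of class B receptors and their accessory proteins, 10 had a count in any kept cell and 7, among them *Gipr*, *Gcgr* and *Glp2r*, had none in 55 cells, which allows a share of up to 5.45%. Only 2 could be compared. *Adcyap1r1*, the receptor for the peptide PACAP, was counted in 10 of 16 and 18 of 39 cells, with 99.8 and 71.5 CPM and a ratio of 1.40. *Ramp1*, an accessory protein of the receptors for calcitonin gene-related peptide, was counted in 4 and 6 cells, with a ratio of 0.89 (other scalings 1.57 and 0.53) that was 2.11 without cell 704.

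*Pomc* was counted in all 55 kept cells, and its levels in both sets overlapped widely. Glp1r-positive cells had 83.5 to 43974 CPM (median 5993), and Glp1r-negative cells had 9.27 to 37106 CPM (median 4187). The ratio of the means was 1.21 and ran from 0.92 to 1.35 when each cell was left out. Within labels it lay on either side of 1, at 0.60 in Ghost and 2.21 in Pomc+ cells. In Ghost cells the medians were 3586 CPM in the 10 Glp1r-positive and 4409 CPM in the 15 Glp1r-negative cells, and in Pomc+ cells they were 15406 CPM in the 6 and 3894 CPM in the 24 cells. All 6 Glp1r-positive Pomc+ cells were at 4373 CPM or above, whereas the Glp1r-negative Pomc+ cells reached down to 314 CPM. *Cartpt*, which encodes the CART peptide made by most *Pomc* neurons, was counted in all 16 and in 38 of 39 cells, with a ratio of 1.21, 0.84 in Ghost and 1.81 in Pomc+ cells. *Tbx3*, a transcription factor needed for the identity of these neurons, was counted in 13 of 16 cells (81.3%, 54.4 to 96.0%) and in 20 of 39 cells (51.3%, 34.8 to 67.6%), with mean levels of 46 and 38.5 CPM. The ratio of *Tbx3* was 1.20 on CPM, 1.85 on deposited normalized counts and 0.79 without the 7 common genes.

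Over the 36 *Pomc* neuron markers that could be compared, 29 had a higher and 7 a lower mean in Glp1r-positive cells. At least 2-fold higher were 11 genes (30.6%) and at least 2-fold lower 3 genes (8.33%), against 25% and 10.9% of all genes, with a median log2 ratio of 0.56. The gene lists share members, so their counts are not separate. Of these 11 genes, *Npy1r*, *Npy2r*, *Npy5r* and *Esr1* were also counted among the receptors above. *Pdyn*, another of them, is counted again among the other arcuate peptides below. *Gpr179* had the highest ratio of the list, 22.2, with a count in 7 of 16 and 3 of 39 cells and 86.3% of the summed CPM of Glp1r-negative cells in 1 cell. *Dlx1*, a homeodomain transcription factor, had the lowest, with a single count in Glp1r-positive cells against 144 counts in 10 Glp1r-negative cells. The ratio of 2.14 for *Isl1*, a transcription factor that turns on *Pomc*, stayed between 1.98 and 2.41 when each cell was left out, and it was counted in 15 of 16 and 23 of 39 cells. *Asb4* was at 644 CPM in both sets (other scalings 1.79 and 0.90), and *Gpx3* had a ratio of 1.21 (other scalings 2.08 and 0.998).

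Of the genes that carry or end the cyclic AMP signal, 26 could be compared, 15 with a higher and 11 with a lower mean in Glp1r-positive cells. At least 2-fold higher were 5 (19.2%) and at least 2-fold lower 4 (15.4%), against 25% and 10.9% of all genes, and the median log2 ratio was 0.06, below that of all genes. It was 0.81 on deposited normalized counts and -0.34 without the 7 common genes. *Adcy5*, an adenylyl cyclase, was highest, with a count in 12 of 16 and 10 of 39 cells, 78.5 and 15.5 CPM and a ratio of 5.05 (4.30 to 7.57 leaving out each cell), and its ratio within single diets and labels lay between 3.95 and 6.98. *Adcy6*, another cyclase, had a ratio of 4.63, which was 3.02 without cell 637 and 11.7 without cell 672. *Akap9*, an anchor of protein kinase A, had 4.31 (3.50 to 5.22) and *Rapgef4*, the cyclic AMP sensor EPAC2, 3.87, which was 2.40 without cell 709 and 5.81 without cell 707. The abundant subunits of protein kinase A were near or below 1, with 0.98 for *Prkar1a* (other scalings 1.5 and 0.79), 0.63 for *Prkar1b* and 0.75 for *Prkacb*. *Gnas*, the stimulatory G protein subunit, had 50.2 and 49.3 CPM (ratio 1.02, other scalings 1.90 and 0.75). *Pde4b*, a phosphodiesterase that breaks down cyclic AMP, had the lowest ratio at 0.36, but 98.2% of its summed CPM in Glp1r-positive cells was in 1 cell, and its ratio was 1.25 within Ghost cells.

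Downstream of the leptin and insulin receptors, 26 genes could be compared and 19 had a higher mean in Glp1r-positive cells. At least 2-fold higher were 2 (7.69%) and at least 2-fold lower 4 (15.4%), against 25% and 10.9% of all genes, with a median log2 ratio of 0.56. *Ptpn2*, a phosphatase that acts on JAK and STAT proteins, had a ratio of 3.49 with a count in 8 of 16 and 7 of 39 cells, and *Pik3ca*, the catalytic subunit of PI3 kinase, had 3.16. *Stat3* was at 220 and 147 CPM (ratio 1.49), *Socs3*, an inhibitor of leptin signalling, at 30.7 and 20.9 CPM (1.47, and 2.53 without cell 672) and *Irs2*, an adaptor of the insulin receptor, at 127 and 85.6 CPM (1.49). *Foxo3*, a transcription factor held in check by insulin signalling, had the lowest ratio, with 4 counts in 1 Glp1r-positive cell against 423 counts in 10 Glp1r-negative cells. None of the 26 genes was higher in Glp1r-positive cells by as large a factor as *Insr*.

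Of 26 genes for the processing and release of peptides, 17 had a higher and 9 a lower mean in Glp1r-positive cells, 4 (15.4%) were at least 2-fold higher and 0 at least 2-fold lower, against 25% and 10.9% of all genes, and the median log2 ratio of 0.26 was close to that of all genes. The prohormone convertase genes *Pcsk1* (91.9 and 38.6 CPM, ratio 2.38, 2.01 to 3.61) and *Pcsk2* (101.5 and 27.8 CPM, ratio 3.65, 2.7 to 5.83), whose products cut the POMC protein into its peptides, were among the 4. *Cplx2*, a regulator of vesicle fusion, had the lowest ratio at 0.60, which was 0.37 without cell 632. Of the fusion machinery itself, *Snap25* had a ratio of 0.83 (other scalings 1.01 and 0.90) and *Vamp2* of 0.71.

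Genes for GABA and glutamate were counted in both sets. *Gad1* and *Gad2*, which make GABA, had ratios of 0.895 (other scalings 1.14 and 0.82) and 1.24 (1.87 and 0.997), and *Slc17a6*, the vesicular glutamate transporter of the hypothalamus, had 1.74, which was 0.62 without cell 649 and 2.46 without cell 686. *Slc17a6* was counted in 7 of 16 (43.8%, 19.8 to 70.1%) and 11 of 39 cells (28.2%, 15 to 44.9%). Cells with a *Gad* gene and without *Slc17a6* made up 56.3% of the Glp1r-positive and 59% of the Glp1r-negative set, and cells with both made up 43.8% and 20.5%. *Slc17a6* without a *Gad* gene was seen in 0 of 16 Glp1r-positive cells, which allows a share of up to 18.8%, and in 3 of 39 Glp1r-negative cells. *Slc32a1*, the vesicular GABA transporter, was counted in 1 and 3 cells. Of the 8 transmitter genes compared, 2 (25%) were at least 2-fold higher and 1 (12.5%) lower, shares close to those of all genes (25% and 10.9%). *Nos1*, the neuronal nitric oxide synthase, had the highest ratio, 2.45, which was 0.28 on CD, 5.26 on HFD and 1.43 without cell 637, and *Ddc*, an enzyme of monoamine synthesis, had the lowest, 0.49.

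Peptides of other arcuate neurons were higher on average in Glp1r-positive cells where they could be compared. All 5 of these genes had a ratio above 1 and 3 (60%) were at least 2-fold higher, against 25% of all genes, with a median log2 ratio of 1.46. *Sst* (somatostatin) was at 102.3 and 21.1 CPM (ratio 4.84), *Gal* (galanin) at 136 and 39.2 CPM (3.46), *Pdyn* (prodynorphin) at 182 and 66.2 CPM (2.75), *Npy* at 48.9 and 28.2 CPM (1.74) and *Nucb2*, the nesfatin precursor, at 60 and 37.4 CPM (1.60). The ratio of *Sst* (3.28 to 8.22) was 0.26 within Pomc+ cells and 5.09 within Ghost cells. That of *Npy* was 21.7 on CD and 0.28 on HFD, and 0.44 within Pomc+ cells, and that of *Nucb2* was 0.93 on CD and 0.83 within Pomc+ cells. Single cells moved the ratio of *Gal* to 2.17 (cell 636), of *Pdyn* to 4.45 (cell 667), of *Npy* to 1.06 (cell 636) and of *Nucb2* to 2.43 (cell 662). *Agrp*, the marker of the neighbouring orexigenic neurons, was counted in 5 of 16 and 4 of 39 cells. *Tac1* and *Nts* were counted in 0 of 16 Glp1r-positive cells, which allows a share of up to 18.8%, and in 8 and 7 of 39 Glp1r-negative cells.

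Ion channels and immediate early genes had list medians well above that of all genes. Of 28 channels, 13 (46.4%) were at least 2-fold higher and 4 (14.3%) at least 2-fold lower, against 25% and 10.9% of all genes, with a median log2 ratio of 0.81. *Cacna1d*, a voltage-gated calcium channel, had the highest ratio at 4.50 (2.94 to 8.11), followed by the calcium channels *Cacna1e* at 4.32 (2.64 to 5.08) and *Cacna1h* at 4.07 (2.61 to 6.70), and *Kcnq3*, a subunit of the M-type potassium channel, had the lowest at 0.17 (0.10 to 0.29). *Trpc5*, a cation channel of *Pomc* neurons linked to leptin signalling, was counted in 1 and 2 cells. Of 11 immediate early genes, 6 (54.5%) were at least 2-fold higher, against 25% of all genes, and 1 (9.09%) was at least 2-fold lower, against 10.9%. *Fosb* had a ratio of 4.92 (3.59 to 7.99), *Dusp1* 3.96 and *Fos* 2.59, with *Fos* at 603 and 233 CPM and a ratio of 1.60 without cell 638. The ratios of these genes differed between the diets, at 1.19 on CD and 4.82 on HFD for *Fos*, 2.12 and 19.9 for *Fosb*, 1.93 and 7.91 for *Dusp1*, 0.79 and 3.13 for *Egr1* and 0.11 and 8.97 for *Npas4*. These diet differences were not tested. For *Fosb* the ratio was 1.26 within Ghost and 19.8 within Pomc+ cells. *Nr4a3* was lowest at 0.35 (1.25 on HFD), with 87.0% of its summed CPM in Glp1r-positive cells in 1 cell. The cells had been held in slices and recorded before they were collected, and the part of this handling was not tested.

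**Figure D4:**
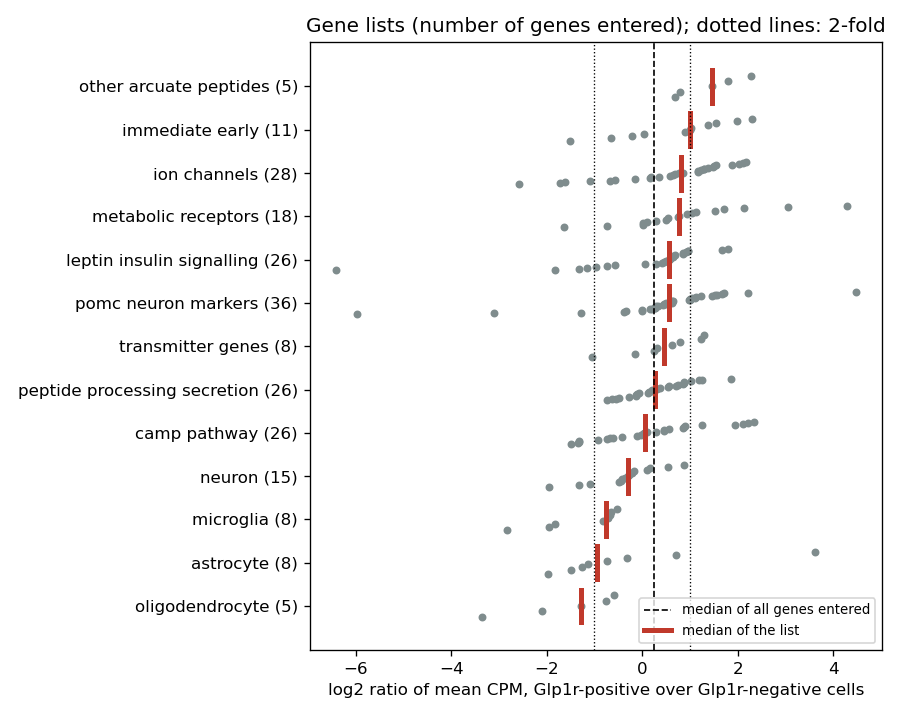
Log2 ratio of mean CPM, Glp1r-positive over Glp1r-negative cells, for each gene compared (grey points) in the gene lists with at least 5 such genes, with the median of each list (red bar), the median of all 8718 genes (dashed line, 0.24) and 2-fold limits (dotted lines). The lists for other arcuate peptides and immediate early genes lie highest, and the 3 glial lists lie lowest on CPM.

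General neuronal genes and genes of glia lay lower on CPM in Glp1r-positive cells. Of 15 pan-neuronal genes, 4 had a higher and 11 a lower mean, whereas 59.1% of all genes had a higher mean. At least 2-fold higher were 0 and at least 2-fold lower 3 (20%), against 25% and 10.9% of all genes. The median log2 ratio was -0.31 on CPM, 0.15 on deposited normalized counts and -0.55 without the 7 common genes. *Map2*, a dendritic protein, was highest with a ratio of 1.82 and *Thy1* lowest with 0.26, which was 0.11 without cell 665. All 8 microglial genes compared were lower on CPM, with a median log2 ratio of -0.77 that was -0.02 on deposited normalized counts and -1.05 without the 7 common genes. Of them, 3 (37.5%) were at least 2-fold lower on CPM. *C1qb*, a complement gene of microglia, was counted in 3 of 16 and 18 of 39 cells with 24.2 and 172 CPM, and *Cx3cr1* had the highest ratio at 0.70 (other scalings 2.01 and 0.42), which was 0.13 without cell 637 and 1.84 without cell 718. The 12 microglial genes together took 0 to 0.322% of counts in Glp1r-positive cells (median 0.00361%) and 0 to 1.46% in Glp1r-negative cells (median 0.0292%). All 5 oligodendrocyte genes compared were lower on CPM as well, with a median of -1.29, led downwards by *Mobp* at a ratio of 0.10, and *Cldn11* was at 0.67 (other scalings 1.06 and 0.39). Of the 5 genes, 3 (60%) were at least 2-fold lower. *Mobp* had 65.7% of its summed CPM of Glp1r-negative cells in cell 651, was at 0.28 without it and was at 1.34 within CD cells. The summed share of the 10 oligodendrocyte genes had a median of 0.0138% and reached 0.112% in Glp1r-positive cells, and had a median of 0.0374% and reached 0.576% in Glp1r-negative cells. Of 8 astrocyte genes, 6 were lower, with *S100b* at a ratio of 0.25, and *Aqp4* was higher at 12.2 with 68.9% of its summed CPM in Glp1r-positive cells in cell 654, without which the ratio was 4.06. Of the 8 genes, 1 (12.5%) was at least 2-fold higher and 4 (50%) were at least 2-fold lower. The astrocyte genes took a median of 0.0350% (0.00126 to 0.167%) and 0.0503% (0 to 0.448%) of counts. *Mog*, *Mal* and *Opalin*, each counted in fewer than 10 kept cells, were at 0 in all 16 Glp1r-positive cells, which allows a share of up to 18.8%. Any marker of endothelium was counted in 1 of 16 and 4 of 39 cells, any of mural cells and fibroblasts in 1 and 7 cells, and any of oligodendrocyte precursors in 5 and 8 cells. *Vim*, the only gene of tanycytes and ependyma compared, had a ratio of 1.03 (other scalings 1.30 and 0.985). Without the 5 Glp1r-negative cells in which the 3 glial lists took over 0.5% of counts, 8315 genes were compared. Of these, 2012 (24.2%) were at least 2-fold higher and 889 (10.7%) lower. In the cells left, the difference in *Lepr* was 25.7 percentage points.

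The genes furthest from equal means were ranked, among those on the same side of 1 on both diets and in both labels, by the ratio closest to 1 when each cell was left out in turn. The 10 highest were *Mum1l1*, *P3h3*, *Arhgap31*, *Prep*, *Gabre*, *Focad*, *Smpd4*, *Rxfp1*, *Epha5* and *Insr*. *Mum1l1* was counted in 8 of 16 and 3 of 39 cells with 76.9 and 1.01 CPM, and its ratio of 75.9 did not fall below 62.1 when any cell was left out. *Focad*, a focal adhesion protein, was counted in 11 of 16 and 5 of 39 cells with 60.5 and 2.20 CPM, a ratio of 27.5. *P3h3*, a prolyl hydroxylase, was counted in 9 and 2 cells with a ratio of 36.7. *Gabre*, the epsilon subunit of the GABA-A receptor, was counted in 8 and 4 cells at 12.1 and 0.336 CPM, a ratio of 36. *Rxfp1*, the relaxin receptor, was counted in 7 and 3 cells at 84.6 and 3.29 CPM, a ratio of 25.7 that was 10.7 without the 7 common genes. *Epha5*, an ephrin receptor, had a ratio of 30.5 that was only 1.11 within Ghost cells. A Glp1r-positive cell had counts in 0 to 10 of the 10 genes with a median of 5.5, and a Glp1r-negative cell in 0 to 5 with a median of 1. These genes were chosen by the difference itself, so the values describe them and support nothing further.

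**Figure D5:**
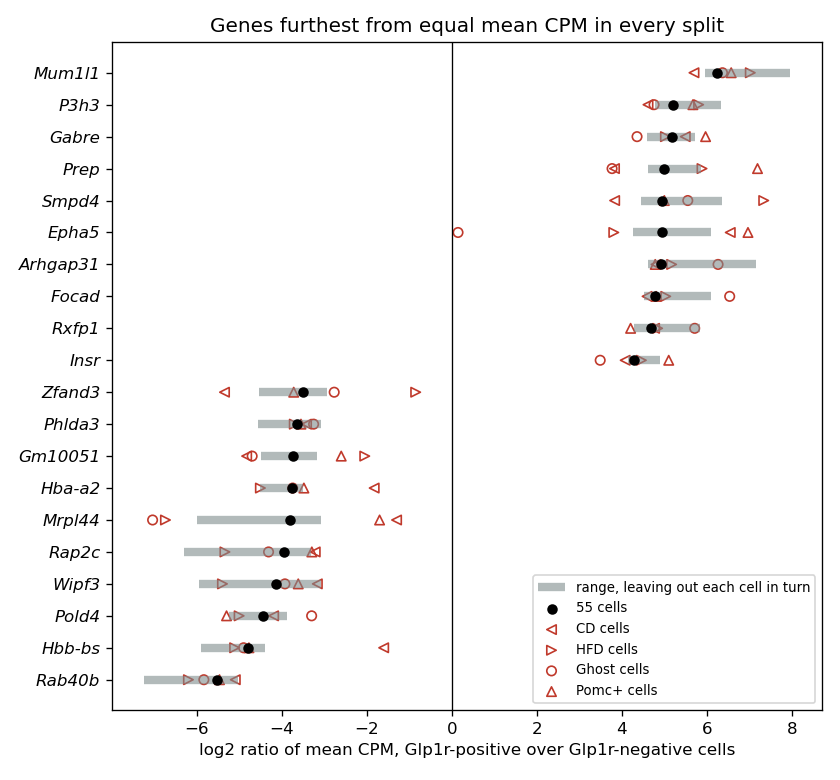
Log2 ratio of mean CPM, Glp1r-positive over Glp1r-negative cells, for the 10 highest and 10 lowest genes over 55 cells (black points), the range when each cell is left out in turn (grey bars) and the values within each diet and label (red open symbols). The grey bars stay on 1 side of 0 for all 20 genes, and *Epha5* is near 0 within Ghost cells.

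The 10 lowest genes were *Rab40b*, *Hbb-bs*, *Pold4*, *Hba-a2*, *Rap2c*, *Gm10051*, *Wipf3*, *Mrpl44*, *Phlda3* and *Zfand3*. *Hbb-bs* and *Hba-a2*, haemoglobin genes abundant in red blood cells, were counted in 4 of 16 and 18 of 39 cells and in 4 and 14 cells, with means of 2.21 and 61.8 CPM and of 1.49 and 20.2 CPM. Near-identical copies of both genes exist, so their counts are uncertain. *Rab40b*, a small GTPase, was counted in 2 and 9 cells at 0.449 and 20.6 CPM, and *Mrpl44*, of the mitochondrial ribosome, in 4 and 14 cells at 3.59 and 50.6 CPM. *Pold4*, a subunit of DNA polymerase delta, was counted in 3 and 9 cells with 3 and 98 counts in all. Beyond these, 10 genes with a count in at least 10 kept cells had none in any Glp1r-positive cell, beside 8718 genes counted in both sets. Among them were *Gltp* in 13, *Ubash3b* in 11 and *Cd38* in 10 Glp1r-negative cells. The 1 gene with none in any Glp1r-negative cell was *Glp1r*, which chose the sets. A gene counted in few cells is missed more easily in the smaller set, and these absences were not tested.

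The ratio moved with transcript length. Among the 8664 compared genes with a length in the reference annotation, taken as the longest transcript, divided into 4 classes of equal size by length, the median log2 ratio was -0.19 in the shortest class (up to 2052 bases) and 0.19, 0.39 and 0.63 in the next 3, the last from 5039 bases upwards. At least 2-fold higher were 12.4% of genes in the shortest and 36.7% in the longest class. The order of the classes was the same on deposited normalized counts, from 0.35 to 1.33, and without the 7 common genes, from -0.33 to 0.33. The 10 highest genes had a median length of 5685 bases and the 10 lowest of 1430 bases, against 3424 bases for all. *Insr* is 9355 bases long and *Glp1r*, which chose the sets, 5811 bases. *Igf1r*, at 11409 bases, had a ratio of 1.07. The part of transcript length in the ratios of single genes was not tested.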

How the data were processed

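Patch-seq libraries of 76 cells used the SMART-Seq Single Cell and Nextera XT kits, without molecular identifiers. The authors deposited raw counts, as whole numbers for 56980 Ensembl genes per cell, and a normalized signal, in which each cell was scaled by a size factor of its own. The submitters' processing notes name cutadapt 2.10, STAR 2.7.5a and DESeq2, without their order, and the build GRCm38. Some identifiers are newer than that build's annotations, so no coordinates are given. Total counts ranged from 4057 to 1452605 per cell.

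Cells with at least 2000 genes were kept and divided by *Glp1r* count. Counts were converted to CPM, and genes other than *Glp1r* with a count in at least 10 kept cells and in both sets entered the ratio of mean CPM, read as past 2-fold or not. No test was run, since the sets were chosen by measured values and the labels name no mouse. Each cell was patched singly and no doublet caller was run. No 2 cells had identical counts. Symbols matched 52073 identifiers. Lengths came from GENCODE vM21. Thinning drew 20000 counts per cell, 20 times. Shares have exact Clopper-Pearson intervals at 95%, differences between shares have Newcombe intervals at 95%, and a count of 0 allows 3 of the total. The members, the gene lists and the rules for named genes were chosen with earlier results of these data known. Named were *Lepr*, *Pomc*, *Cartpt* and *Tbx3*, every listed receptor with a count in at least 5 kept cells, the highest and lowest gene of each other list, and 10 genes at either end of all genes. Other list members named were picked after their values were seen. The scripts were checked on simulated counts. Python 3.11.15, numpy 2.4.6, pandas 2.3.3, scipy 1.17.1 and matplotlib 3.10.9 were used. Alternatives were other limits of genes and of *Glp1r* counts, equal depth, other scalings and filters, single labels and diets, and leaving out each cell.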

Additional observations from a re-analysis of the deposited data

How the results depend on the processing

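Over all alternatives the percent of Glp1r-positive cells kept within its interval except at a minimum of 4000 genes, where it was 44%. The differences in Ghost and *Lepr* shares kept their direction under every alternative tried. The difference in HFD cells was 0 without a minimum of genes per cell and 0.943 percentage points at a minimum of 1000 genes, against -10.1 in the report. Leaving out each cell in turn gave 27.8 to 29.6% positive cells, 21.5 to 28.2 points for Ghost, -13.8 to -7.18 points for HFD, 23.1 to 29.7 points for *Lepr*, and a ratio of median genes of 1.66 to 1.80.

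Within CD cells 748 genes were at least 2-fold higher and 757 lower, within HFD cells 1233 and 714, within Ghost cells 583 and 719 and within Pomc+ cells 1701 and 570. Deposited normalized counts gave 3979 and 454 genes (45.6% and 5.21%) and a median of 0.87. A count in at least 5 cells gave 3497 and 1607 genes, and no filter 4872 and 2366. Among the 67 genes that were named by rule and had a ratio, 46 were past 2-fold. Under alternatives, single diets and labels included, 765 of the 775 values of these 46 genes lay on the same side of 1. The 10 exceptions, as log2 ratios, were *Esr1* at -0.43 without a minimum of genes and -0.56 at 1000 genes, *Npy1r* at -0.25 and *Pde4b* at 0.33 within Ghost cells, *Il6st* at -1.76, *Nos1* at -1.82 and *Mobp* at 0.42 within CD cells, *Nos1* at -4.53 and *Sst* at -1.95 within Pomc+ cells, and *Nr4a3* at 0.32 within HFD cells. List members named after their values were seen were left out of this count. Among them, *Npas4* and *Egr1* were past 2-fold with all cells and lay below 1 within CD cells. The causes were not tested. The 10 genes at either end of all genes were chosen to lie on the same side of 1 on both diets and in both labels. The 765 of 775 values are therefore no measure of stability. Of the 21 genes not past 2-fold, 18 changed sign under at least 1 alternative. The limits on the shared range of genes, on 1 to 3 *Glp1r* counts and on glial counts were chosen after seeing the data, and none changed the direction of a share.

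With 16 cells in 1 set, a share moves by 6.25 percentage points per cell, and a low level in 1 cell cannot be told from a missed transcript. No paired analysis was possible because the labels give each cell its own number and name no mouse.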
